A study of Sus scrofa with 10 samples.

Results

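Interferon-stimulated genes were followed in pig liver (Sus scrofa) through liver failure after hepatectomy and its treatment with a bioartificial liver. A list of 40 genes was taken, each known from human and mouse cells to be induced by interferon, and 36 of them were found by symbol among the 31905 genes of the deposited table. No symbol had more than 1 row. Of the 36, 35 reached the filter on low values (at least 1 FPKM in at least 2 libraries) and were tested. OASL, which lay between 0.0700 and 0.813 FPKM, was not tested. FPKM is a level corrected for the length of the gene and for the size of the library. DDX58 and GBP1 had no row under their symbols but were found through their gene identifiers, and they are described apart from the 35. XAF1 and IFIT3 were not analysed here.

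The study deposited RNA sequencing of 10 liver libraries in 5 groups, all from animals given as wild type. Control was normal liver on day 0 (3 libraries). No-BAL was liver failure without a device on day 2 (2 libraries), and Empty-BAL was liver failure treated on day 3 with a device that held no cells (2 libraries), which the submitters used as the control for the effect of blood. hiHep-BAL-Day4 (1 library) and hiHep-BAL-Day8 (2 libraries) were livers on day 4 and day 8 of treatment with a device filled with human induced hepatocytes, which are hepatocyte-like cells made from another human cell type. The stated purpose was to find genes that change in liver failure and then return under the filled device. The human cells sit in the device outside the body, and the tissue sequenced was pig liver. Each group was taken on its own day, so treatment and time cannot be told apart. The labels do not say that the libraries of a group came from separate pigs, so the p-values below rest on how far the libraries of a group lie apart, and part or all of that could be technical.

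Interferons are cytokines released by cells that detect viral nucleic acid, bacterial products or damage. Type I and type III interferons signal through the kinases JAK1 and TYK2 to a complex that holds STAT2 and IRF9 and switches on the interferon-stimulated genes, while type II interferon strongly induces IRF1. The products sense foreign RNA, degrade or sequester it, tag proteins with the ubiquitin-like protein ISG15, or display peptides to T cells, and hepatocytes, Kupffer cells and endothelial cells of the liver all respond. The roles given below were worked out mainly in human and mouse.

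The libraries of Control and of hiHep-BAL-Day8 lay much closer together than those of the other groups. Pearson's r of log2(FPKM + 1) across the 12180 genes tested was 0.992 to 0.994 between Control libraries and 0.992 between the hiHep-BAL-Day8 libraries, against 0.956 in No-BAL and 0.893 in Empty-BAL. Although the labels name hepatocytes as the cell type, the source is whole liver, and markers of other cells were present in every group. Summed FPKM of 11 hepatocyte genes was 99583 to 102695 in Control, 26188 and 18034 in No-BAL, 3797 and 8509 in Empty-BAL, 47307 in hiHep-BAL-Day4 and 28762 and 28656 in hiHep-BAL-Day8. ALB weighed most in Control, at 52275 to 55098 FPKM. In hiHep-BAL-Day8, 9 of the 11 had a negative log2 change from Control and 2, CPS1 and HNF4A, a positive one. There 4 of the 11 passed the test described below as lower, against 17.1% of all genes. In bulk tissue, fewer cells of a type and less RNA per cell cannot be told apart. The number of sequenced fragments is not known from FPKM, so no counting interval is given.

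The interferon-stimulated genes were not all called in the same direction. A gene was called when its adjusted p from limma was under 0.05, with adjustment over all 12180 genes. In every comparison some members were called higher and others lower, and the share called in either direction was below that of all genes. In the comparisons of hiHep-BAL-Day8, however, the share called lower was above that of all genes. It was 22.9% against 17.1% beside Control, 34.3% against 24.8% beside No-BAL and 22.9% against 17.6% beside Empty-BAL. In members these were 8, 12 and 8 of 35. With upper-quartile scaling the 12 beside No-BAL became 5, where 47.5% of all genes were called and 60.1% of those calls were higher. The 8 beside Control became 7, and the 8 beside Empty-BAL stayed 8. The counts also fell when either hiHep-BAL-Day8 library was left out, so the gaps depended on the setting. Against Control, 4 of 35 members (IRF1, IFI6, OAS2 and LGALS3BP) were lower in all 3 tested groups, where 9.26% of all genes were. None was higher in all 3, against 3.46% of all genes, and 16 were called in none, against 23.4%. The 3 comparisons share the Control libraries. Of the 36 members, 16 had their highest group mean in hiHep-BAL-Day4, 7 in Empty-BAL, 6 in Control, 6 in No-BAL and 1 in hiHep-BAL-Day8. The lowest mean was in hiHep-BAL-Day8 for 16 members, in Control for 8, in Empty-BAL for 8, in No-BAL for 2 and in hiHep-BAL-Day4 for 2. These counts were not made over all genes, so they are not known to be particular to the members. The hiHep-BAL-Day4 value is a single library, which is more easily extreme than a mean of several.

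**Figure D1:**
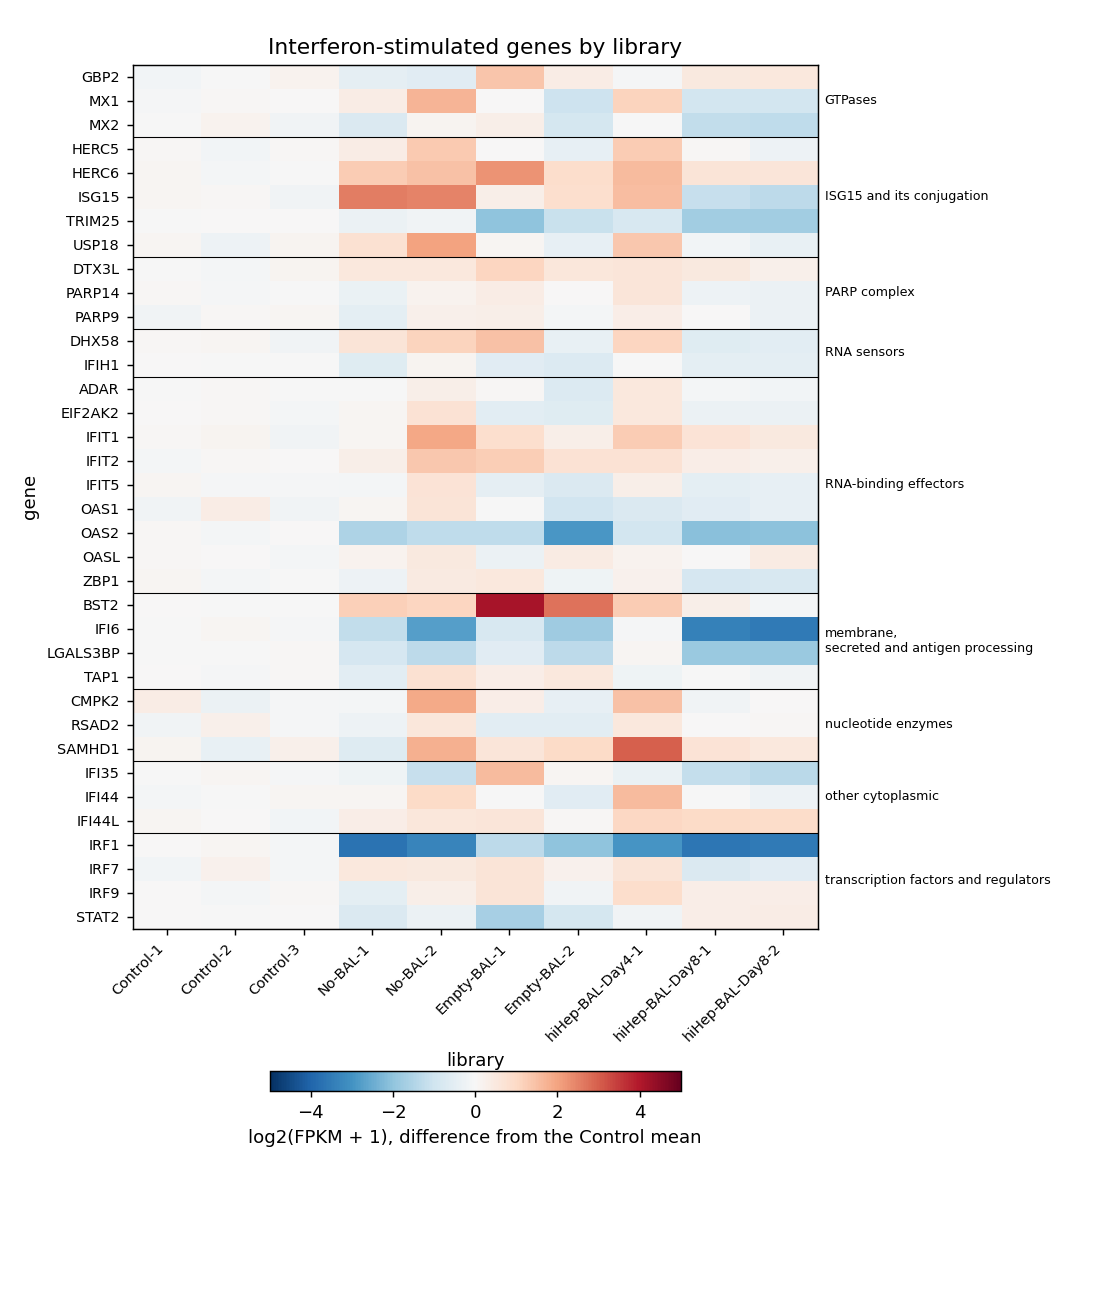
Each row is 1 of the 36 interferon-stimulated genes, grouped by role, and each column 1 of the 10 libraries; colour gives the difference in log2(FPKM + 1) from the mean of the Control libraries. IRF1, IFI6 and OAS2 form blue rows after Control, ISG15 is red in both No-BAL libraries, BST2 is darkest in the Empty-BAL libraries, and most members of the hiHep-BAL-Day8 libraries are pale or blue.

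Liver failure without a device changed ISG15 and IRF1 most among the members, and in opposite directions. In No-BAL against Control, 6 of 35 members were higher (17.1%) and 4 lower (11.4%), where 25.2% of all genes tested were higher and 24.2% lower, and 49.4% were called in either direction. The members called higher were ISG15, USP18, HERC6, BST2, HERC5 and DTX3L, and those called lower were IRF1, IFI6, OAS2 and LGALS3BP. The median log2 change of the members was 0.30, against 0.04 for all genes. Without No-BAL replicate 1, 14 members were higher, and without No-BAL replicate 2, 1 was. When the Control libraries and the hiHep-BAL-Day8 libraries were each averaged to 1 library, IRF1 was the member still called (limma adjusted p = 0.039), with 3.39% of all genes called.

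The empty device group was marked by BST2. In Empty-BAL against Control, 5 of 35 members were higher (14.3%) and 8 lower (22.9%), against 24.4% and 29.3% of all genes, and 53.7% of all genes were called. BST2, HERC6, IFIT2, GBP2 and DTX3L were higher, and OAS2, IRF1, TRIM25, IFI6, STAT2, LGALS3BP, IFIH1 and EIF2AK2 were lower. The members' median log2 change was -0.03, equal to that of all genes at 2 decimals. Calls over all genes were 45.4% higher in this comparison, and 57.0% with upper-quartile scaling. That scaling moved the median of all genes by 0.177 and gave 8 members higher and 5 lower. The count of higher members was 3 without Control replicate 1 or 2, where 42.5% and 43.1% of all genes were called. It rose without Empty-BAL replicate 2, as did the share of all genes called. With averaged libraries the members' calls were lost, as were most of those over all genes.

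By day 8 of the filled device 24 of 35 members had a negative log2 change from Control, a count not made over all genes. In hiHep-BAL-Day8 against Control, IFI44L was the only member of 35 called higher (2.86%) and 8 were lower (22.9%), against 15.1% and 17.1% of all genes, with 32.2% called. The 8 were IRF1, IFI6, OAS2, LGALS3BP, TRIM25, MX2, ISG15 and IRF7. The members' median log2 change was -0.26 and that of all genes -0.02. With upper-quartile scaling the share of calls that were higher went from 46.9% to 62.0% over all genes and the median of all genes moved by 0.165. The median member of hiHep-BAL-Day8 replicates 1 and 2 went from -0.18 and -0.30 to -0.02 and -0.18 under that scaling. Leaving out hiHep-BAL-Day8 replicate 1 or 2 removed the higher call and lowered the count of lower members, and fewer of all genes were called as well. With averaged libraries the members' calls were lost, as were nearly all of those over all genes.

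Between the failing liver and day 8 of the filled device, 12 members were called lower and 21 were not called. In hiHep-BAL-Day8 against No-BAL, 30 of 35 members had a negative log2 change, a count not made over all genes. Those called lower made up 34.3% and the 2 called higher 5.71%, against 24.8% and 22.5% of all genes, with 47.3% called. The 12 were ISG15, MX1, USP18, TRIM25, IFI6, DHX58, IRF7, HERC5, ZBP1, LGALS3BP, IFIT5 and EIF2AK2, and the 2 were GBP2 and STAT2. The members' median log2 change was -0.68, against -0.03 for all genes. Upper-quartile scaling moved the all-gene median by 0.185 and the higher share of calls from 47.5% to 60.1%, and gave 5 members lower. The lower count fell most without hiHep-BAL-Day8 replicate 2, where fewer of all genes were called as well. It was 6 without any 1 Control library, where 40.8% to 41.4% of all genes were called. With averaged libraries ISG15 was the member still called, and most calls over all genes were lost.

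The 2 other comparisons set the empty device beside No-BAL and beside day 8 of the filled device. In Empty-BAL against No-BAL, 4 members were higher (BST2, IRF1, IFI35 and GBP2; 11.4%) and 7 lower (ISG15, USP18, MX1, TRIM25, HERC5, EIF2AK2 and IFIT5; 20.0%), against 12.6% and 21.4% of all genes, with 34.0% called. In hiHep-BAL-Day8 against Empty-BAL, STAT2 was higher (2.86%) and 8 members were lower (22.9%), against 22.6% and 17.6% of all genes, with 40.2% called. Those 8 were BST2, IFI6, IFI35, IRF1, ISG15, IRF7, ZBP1 and LGALS3BP. The members' median log2 change was -0.11 in the former comparison and -0.24 in the latter, beside -0.14 and 0.05 for all genes. Upper-quartile scaling moved the all-gene median of Empty-BAL against No-BAL by 0.198 and the higher share of calls from 37.0% to 63.4%, with 4 members lower. Without No-BAL replicate 1, 13 members were lower in Empty-BAL against No-BAL, and without No-BAL replicate 2, 3 were. In hiHep-BAL-Day8 against Empty-BAL, more members were lower without Empty-BAL replicate 2, and fewer without either hiHep-BAL-Day8 library. The share of all genes called moved in the same directions. With averaged libraries the members' calls in both comparisons were lost, as were nearly all of those over all genes.

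**Figure D2:**
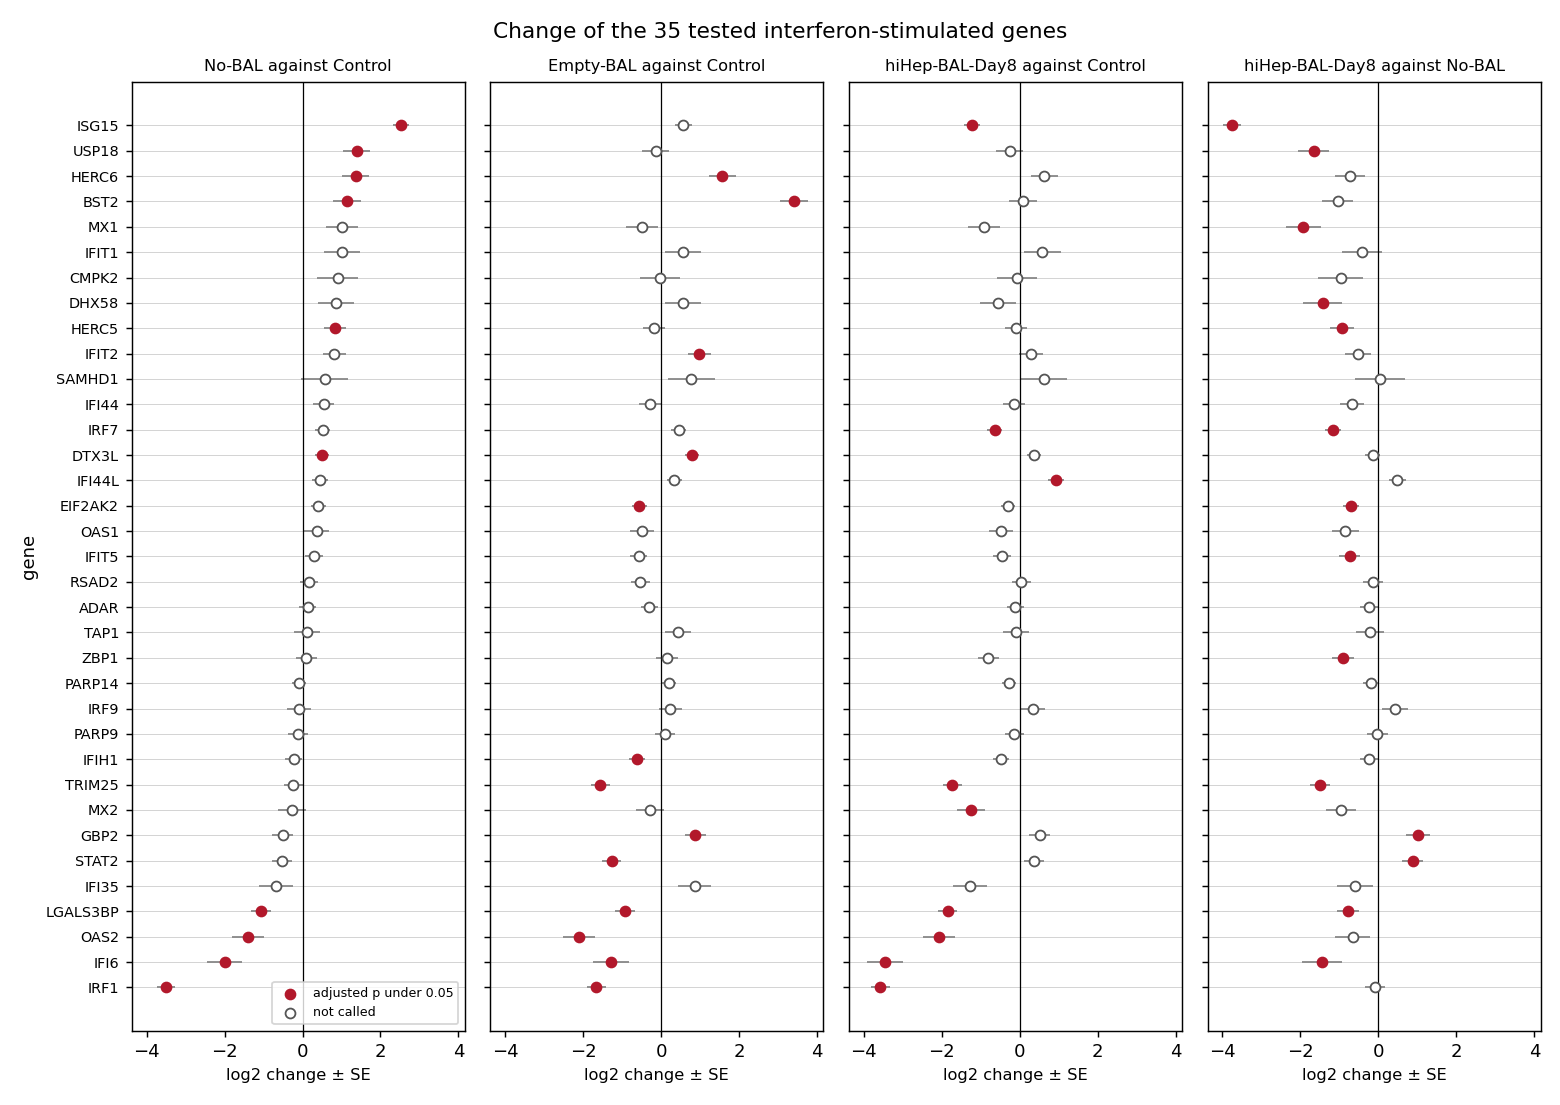
Log2 change with its standard error (x axis, log2(FPKM + 1) scale) of the 35 tested members (y axis, ordered by their change in No-BAL against Control) in 4 comparisons; filled points passed the test at an adjusted p under 0.05. ISG15 lies at 2.53 in No-BAL against Control and at -3.76 in hiHep-BAL-Day8 against No-BAL, while IRF1 lies far to the left in all 3 panels against Control.

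Among the transcription factors, IRF1, which binds interferon response elements and is itself induced by interferon gamma, was the member with the lowest value in No-BAL relative to Control. It lies on chromosome 2 (Sscrofa11.1, chr2:134776122-134783646). IRF1 measured 91.3, 97.0 and 84.4 FPKM in Control, 6.04 and 8.38 in No-BAL, 36.2 and 21.7 in Empty-BAL, 10.8 in hiHep-BAL-Day4 and 6.48 and 6.89 in hiHep-BAL-Day8. Every library after Control lay below every Control library, and the Empty-BAL libraries lay between Control and the rest. The log2 change against Control was -3.50 ± 0.24 (SE) in No-BAL (limma adjusted p = 3.5e-05), -1.66 ± 0.24 in Empty-BAL (0.00085) and -3.58 ± 0.24 in hiHep-BAL-Day8 (5.8e-05). Empty-BAL was above No-BAL by 1.84 ± 0.26 (limma adjusted p = 0.0041), and hiHep-BAL-Day8 was below Empty-BAL, at -1.92 ± 0.26 (0.0012). hiHep-BAL-Day8 and No-BAL had similar values, with a log2 change of -0.08 ± 0.26 (limma adjusted p = 0.82). Macrophage and T and NK cell marker sums also differed between these groups, as given below, and their part in the IRF1 result was not tested.

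IRF7, the factor that amplifies type I interferon production, moved over a narrower range. Its FPKM were 15.3, 19.8 and 15.9 in Control, 25.0 and 24.4 in No-BAL, 27.3 and 20.0 in Empty-BAL, 26.7 in hiHep-BAL-Day4 and 9.86 and 11.0 in hiHep-BAL-Day8. The hiHep-BAL-Day8 libraries were the lowest, and those of No-BAL, Empty-BAL and hiHep-BAL-Day4 all exceeded Control. hiHep-BAL-Day8 was lower than No-BAL by limma (log2 change -1.17 ± 0.21, adjusted p = 0.0029), than Empty-BAL (-1.09 ± 0.21, 0.005) and than Control (-0.64 ± 0.19, 0.035). The call against Control was lost when any Control or hiHep-BAL-Day8 library was left out. Against Control, IRF7 did not pass the test in No-BAL (0.52 ± 0.19, limma adjusted p = 0.051) or Empty-BAL (0.45 ± 0.19, 0.079).

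STAT2 and IRF9 belong to the complex that carries the type I signal to the nucleus. STAT2 measured 40.8, 39.5 and 41.1 FPKM in Control, 24.0 and 32.4 in No-BAL, 12.1 and 21.4 in Empty-BAL, 35.6 in hiHep-BAL-Day4 and 51.5 and 52.8 in hiHep-BAL-Day8. It was the 1 member with its highest group mean in hiHep-BAL-Day8, and Empty-BAL was the lowest group without overlap. By limma it was lower in Empty-BAL than in Control (-1.27 ± 0.25, adjusted p = 0.0035) and higher in hiHep-BAL-Day8 than in Empty-BAL (1.63 ± 0.27, 0.0027) and No-BAL (0.88 ± 0.27, 0.029). The call against No-BAL was lost without No-BAL replicate 1 and without any Control or hiHep-BAL-Day8 library. IRF9 measured 27.4 to 30.2 FPKM in Control, 20.4 and 36.0 in No-BAL, 46.2 and 25.4 in Empty-BAL, 53.6 in hiHep-BAL-Day4 and 37.1 and 36.9 in hiHep-BAL-Day8. It passed in none of the 6 comparisons, with log2 changes from -0.09 to 0.43, and the 2 libraries of No-BAL and of Empty-BAL straddled the Control range.

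**Figure D3:**
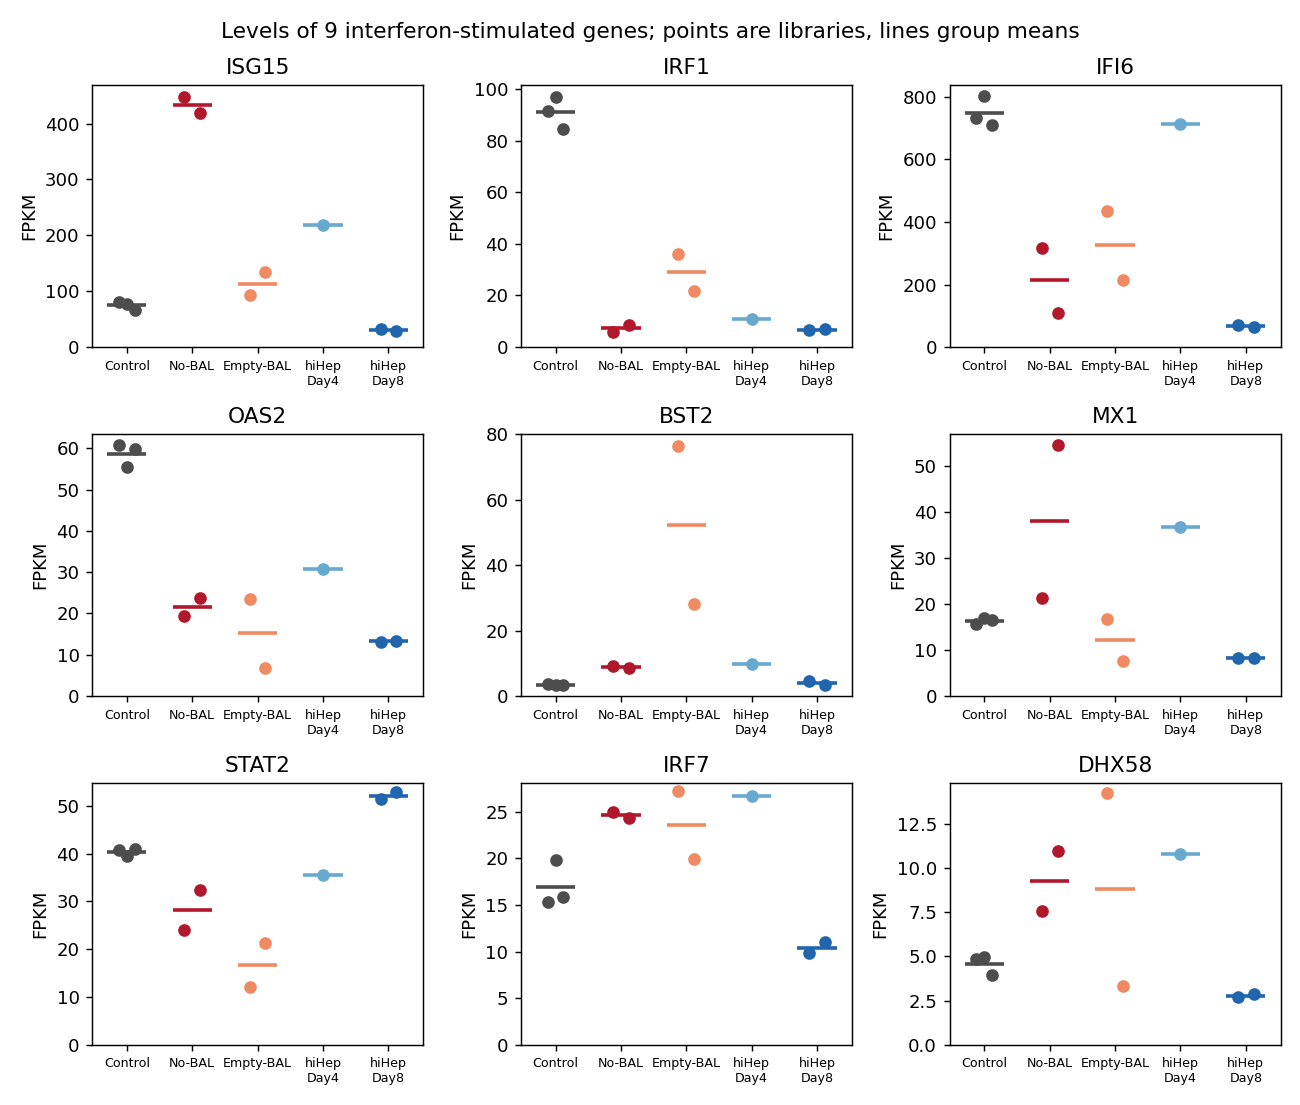
FPKM (y axis, from 0) of 9 members in the 5 groups (x axis); points are libraries and horizontal lines group means. ISG15 is highest in No-BAL, IRF1 and OAS2 are highest in Control, BST2 is highest in Empty-BAL with its 2 libraries at 76.5 and 28.2, STAT2 is highest in hiHep-BAL-Day8, and the DHX58 libraries of Empty-BAL lie far apart.

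ISG15, a ubiquitin-like protein that is attached to other proteins during an interferon response, was highest in No-BAL and lowest in hiHep-BAL-Day8. It lies at chr6:63363201-63364211 of Sscrofa11.1. ISG15 measured 80.6, 77.2 and 66.4 FPKM in Control, 448 and 419.7 in No-BAL, 92.5 and 134 in Empty-BAL, 219 in hiHep-BAL-Day4 and 32.8 and 29.6 in hiHep-BAL-Day8. No group's libraries overlapped with those of another group, and the order from highest to lowest was No-BAL, hiHep-BAL-Day4, Empty-BAL, Control and hiHep-BAL-Day8. The ratio of the highest to the lowest group mean was 13.9. ISG15 was higher in No-BAL than in Control (log2 change 2.53 ± 0.21, limma adjusted p = 8.4e-05) and lower in hiHep-BAL-Day8 than in No-BAL (-3.76 ± 0.23, 3.8e-05). It was also lower in hiHep-BAL-Day8 than in Control (-1.23 ± 0.21, limma adjusted p = 0.0038), a call lost without hiHep-BAL-Day8 replicate 2, and lower in Empty-BAL than in No-BAL (-1.95 ± 0.23, 0.0024). Its difference between Empty-BAL and Control was 0.57 ± 0.21 (limma adjusted p = 0.051), and it passed without Empty-BAL replicate 1 or either No-BAL library. With averaged libraries the adjusted p of ISG15 in No-BAL against Control was 0.079.

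Of the 5 tested genes of ISG15 and its conjugation, 4 were higher in No-BAL than in Control (ISG15, USP18, HERC5 and HERC6) and none was lower, against 25.2% and 24.2% of all genes. Without No-BAL replicate 2, ISG15 was the 1 still called. USP18, the protease that removes ISG15 and dampens the type I receptor, measured 5.31, 3.88 and 5.40 FPKM in Control, 8.94 and 22.6 in No-BAL, 5.28 and 3.43 in Empty-BAL, 13.7 in hiHep-BAL-Day4 and 4.30 and 3.44 in hiHep-BAL-Day8. Both No-BAL libraries and the hiHep-BAL-Day4 library exceeded all others. USP18 was higher in No-BAL than in Control (1.39 ± 0.35, limma adjusted p = 0.013) and lower in hiHep-BAL-Day8 than in No-BAL (-1.66 ± 0.39, 0.0099) and in Empty-BAL than in No-BAL (-1.54 ± 0.39, 0.022). Without No-BAL replicate 2, the higher of the pair, the calls of No-BAL against Control and of Empty-BAL against No-BAL were lost, the latter also without Empty-BAL replicate 2, and the day 8 call was lost without hiHep-BAL-Day8 replicate 2.

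HERC5 is the main ligase for ISG15 in human cells, and HERC6 is that of the mouse. HERC6 was between 2.30 and 2.81 FPKM in Control, 7.50 and 8.71 in No-BAL, 15.8 and 5.48 in Empty-BAL, 9.61 in hiHep-BAL-Day4 and 4.53 and 4.40 in hiHep-BAL-Day8, all above Control. It was higher than Control in No-BAL (1.36 ± 0.35, limma adjusted p = 0.013) and in Empty-BAL (1.57 ± 0.35, 0.0068), the former not without No-BAL replicate 2. HERC5 was 1.68 to 2.07 FPKM in Control and 2.72 and 6.13 in No-BAL, and its higher value in No-BAL (0.83 ± 0.28, limma adjusted p = 0.04) did not pass without No-BAL replicate 2 or any Control or hiHep-BAL-Day8 library. TRIM25, a ubiquitin ligase that also activates RIG-I, behaved otherwise: it measured 15.3 to 16.0 FPKM in Control and 12.6 and 13.7 in No-BAL, but 3.19 and 6.67 in Empty-BAL, 8.58 in hiHep-BAL-Day4 and 4.03 and 4.06 in hiHep-BAL-Day8. Every library of the device groups was below every library of Control and No-BAL. TRIM25 was lower than Control in Empty-BAL (-1.56 ± 0.24, limma adjusted p = 0.0012) and hiHep-BAL-Day8 (-1.73 ± 0.24, 0.0014), and lower than No-BAL in both (-1.32 ± 0.26, 0.01, and -1.49 ± 0.26, 0.0028).

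The cytosolic RNA sensors IFIH1 and DHX58 were found by symbol, and DDX58, which encodes RIG-I, by its identifier. IFIH1, also called MDA5, which binds long double-stranded RNA, measured 2.06 to 2.15 FPKM in Control, 1.03 and 2.43 in No-BAL, 1.10 and 0.933 in Empty-BAL, 2.05 in hiHep-BAL-Day4 and 1.23 and 1.21 in hiHep-BAL-Day8. It was lower in Empty-BAL than in Control (-0.62 ± 0.21, limma adjusted p = 0.037), a call lost when any library of Control, Empty-BAL or hiHep-BAL-Day8 was left out. DHX58, or LGP2, a regulator of the other sensors, measured 3.94 to 4.96 FPKM in Control, 7.60 and 11.0 in No-BAL, 14.3 and 3.33 in Empty-BAL, 10.8 in hiHep-BAL-Day4 and 2.69 and 2.87 in hiHep-BAL-Day8. Its Empty-BAL libraries lay on either side of Control. hiHep-BAL-Day8 was lower than No-BAL (-1.43 ± 0.50, limma adjusted p = 0.048), and this call was lost without any 1 library of Control, No-BAL or hiHep-BAL-Day8.

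DDX58 measured 5.30 to 5.86 FPKM in Control, 7.64 and 18.0 in No-BAL, 1.11 and 2.35 in Empty-BAL, 14.8 in hiHep-BAL-Day4 and 2.77 and 2.93 in hiHep-BAL-Day8. The groups did not overlap, apart from hiHep-BAL-Day4, which fell between the No-BAL libraries. DDX58 was higher in No-BAL than in Control (0.96 ± 0.33, limma adjusted p = 0.042), lower in Empty-BAL than in Control (-1.30 ± 0.33, 0.012) and lower than No-BAL in Empty-BAL (-2.27 ± 0.36, 0.0053) and hiHep-BAL-Day8 (-1.74 ± 0.36, 0.0059). The call of No-BAL against Control was lost without No-BAL replicate 2 or any Control or hiHep-BAL-Day8 library, and under a pseudocount of 0.1 or upper-quartile scaling. The call of Empty-BAL against Control was lost without Empty-BAL replicate 1. Since its row carried no symbol in the deposited table, it is not counted among the 35.

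The RNA-binding effectors split by gene. OAS2 synthesises the oligoadenylate that activates RNase L. It measured 60.9, 55.4 and 59.8 FPKM in Control, 19.5 and 23.7 in No-BAL, 23.5 and 6.87 in Empty-BAL, 30.7 in hiHep-BAL-Day4 and 13.2 and 13.3 in hiHep-BAL-Day8. Every library after Control was below every Control library. OAS2 was lower than Control in No-BAL (-1.41 ± 0.41, limma adjusted p = 0.023), Empty-BAL (-2.10 ± 0.41, 0.0036) and hiHep-BAL-Day8 (-2.07 ± 0.41, 0.007). The No-BAL call was lost without either No-BAL library or any Control library, and that of hiHep-BAL-Day8 without either of its libraries. Its neighbour OAS1, which makes the same product, was 0.588 to 3.81 FPKM over all libraries and passed in no comparison.

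The IFIT genes encode proteins that bind foreign RNA ends. IFIT1 measured 5.72 to 7.30 FPKM in Control, 7.21 and 28.0 in No-BAL, 12.8 and 8.27 in Empty-BAL, 17.6 in hiHep-BAL-Day4 and 11.2 and 9.68 in hiHep-BAL-Day8, and passed in no comparison. IFIT2 was 0.829 to 1.02 FPKM in Control and higher in every other library, at 1.30 to 3.98 FPKM. It passed in Empty-BAL against Control (0.98 ± 0.30, limma adjusted p = 0.026), a call lost without Empty-BAL replicate 1 or any Control library. IFIT5, at 3.40 to 10.8 FPKM, was lower than No-BAL in Empty-BAL (-0.88 ± 0.26, limma adjusted p = 0.033) and hiHep-BAL-Day8 (-0.74 ± 0.26, 0.044). How far these IFIT5 calls held with libraries left out is given with EIF2AK2 and ZBP1 below.

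EIF2AK2, the kinase PKR that halts translation when it binds double-stranded RNA, measured 3.47 to 3.94 FPKM in Control, 4.01 and 6.73 in No-BAL, 2.28 and 2.13 in Empty-BAL, 5.77 in hiHep-BAL-Day4 and 2.85 and 2.84 in hiHep-BAL-Day8. No library of Empty-BAL or hiHep-BAL-Day8 reached the lowest Control library. EIF2AK2 was lower in Empty-BAL than in Control (-0.56 ± 0.19, limma adjusted p = 0.037) and lower than No-BAL in Empty-BAL (-0.96 ± 0.21, 0.013) and hiHep-BAL-Day8 (-0.70 ± 0.21, 0.026). The call against Control was lost without Control replicate 3, where OAS2, IRF1, TRIM25 and STAT2 were the 4 members still lower. Without any 1 Control library, 4 members were lower in Empty-BAL against No-BAL, with ISG15, USP18 and TRIM25 among them. EIF2AK2 and IFIT5 thus did not both keep that call. ZBP1, a sensor of Z-form nucleic acid that can start necroptosis, was 0.583 and 0.610 FPKM in hiHep-BAL-Day8 and 1.33 to 3.02 FPKM elsewhere, and was lower there than in No-BAL (-0.91 ± 0.29, limma adjusted p = 0.036) and Empty-BAL (-0.96 ± 0.29, 0.034). The latter call was lost without either hiHep-BAL-Day8 library. Without any 1 Control library, 6 members were lower in hiHep-BAL-Day8 against No-BAL, with ISG15, MX1, USP18, TRIM25 and IRF7 among them. At most 1 of EIF2AK2, ZBP1 and IFIT5 thus kept that call. ADAR, which edits adenosine to inosine in double-stranded RNA, varied between 5.31 and 13.5 FPKM and passed in no comparison.

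The GTPases MX1 and MX2 block viral nucleocapsids. MX1 measured 15.6, 16.9 and 16.5 FPKM in Control, 21.3 and 54.6 in No-BAL, 16.6 and 7.56 in Empty-BAL, 36.7 in hiHep-BAL-Day4 and 8.25 and 8.23 in hiHep-BAL-Day8. Both No-BAL libraries exceeded Control, but they lay far from each other, and the change did not pass (1.02 ± 0.41, limma adjusted p = 0.072). MX1 was lower in hiHep-BAL-Day8 than in No-BAL (-1.93 ± 0.45, limma adjusted p = 0.0099), a call lost without either hiHep-BAL-Day8 library, and in Empty-BAL than in No-BAL (-1.52 ± 0.45, 0.036), a call lost without Empty-BAL replicate 2, No-BAL replicate 2 or any Control or hiHep-BAL-Day8 library. MX2 was 3.88 to 5.14 FPKM in Control and 1.36 and 1.27 in hiHep-BAL-Day8, which was lower (-1.24 ± 0.36, limma adjusted p = 0.033), a call lost without either hiHep-BAL-Day8 library.

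The guanylate-binding proteins, which act on the membranes of intracellular pathogens, had their lowest values in No-BAL. GBP2 measured 0.905 to 1.34 FPKM in Control, 0.542 and 0.400 in No-BAL, 4.50 and 1.70 in Empty-BAL, 1.02 in hiHep-BAL-Day4 and 1.97 and 1.99 in hiHep-BAL-Day8. Both device groups tested lay above Control and No-BAL in every library. GBP2 was higher in Empty-BAL than in Control (0.88 ± 0.27, limma adjusted p = 0.027) and No-BAL (1.39 ± 0.30, 0.013), and in hiHep-BAL-Day8 than in No-BAL (1.02 ± 0.30, 0.024). The call against Control was lost without Empty-BAL replicate 1 or Control replicate 1 or 2, that of Empty-BAL against No-BAL without No-BAL replicate 2, and that of hiHep-BAL-Day8 without any No-BAL or hiHep-BAL-Day8 library. GBP1, found by identifier, was likewise highest in Empty-BAL and lowest in No-BAL, with 3.31 to 4.12 FPKM in Control, 1.10 and 2.00 in No-BAL, 16.4 and 8.18 in Empty-BAL, 2.83 in hiHep-BAL-Day4 and 3.68 and 3.54 in hiHep-BAL-Day8. It was lower in No-BAL than in Control (-0.93 ± 0.28, limma adjusted p = 0.026) and higher in Empty-BAL than in Control (1.41 ± 0.28, 0.004), the former not without No-BAL replicate 1 or any Control library.

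None of the 3 enzymes of nucleotide metabolism passed in any comparison. CMPK2, a mitochondrial nucleotide kinase, was 2.67 and 13.3 FPKM in the No-BAL libraries and 9.62 in hiHep-BAL-Day4, against 2.19 to 3.98 in Control. RSAD2, or viperin, which makes a chain-terminating nucleotide, stayed at or below 1.49 FPKM in every library. SAMHD1, which depletes deoxynucleotides, measured 1.19 to 2.43 FPKM in Control, 0.857 and 8.79 in No-BAL, 3.35 and 4.50 in Empty-BAL, 21.9 in hiHep-BAL-Day4 and 3.60 and 3.16 in hiHep-BAL-Day8, so the day 4 library exceeded all others.

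In the PARP complex, DTX3L, a ubiquitin ligase that works with PARP9 in DNA repair and interferon responses, was 0.615 to 0.908 FPKM in Control and 1.08 to 2.63 FPKM in every other library. It was higher than Control in No-BAL (0.51 ± 0.18, limma adjusted p = 0.043) and Empty-BAL (0.80 ± 0.18, 0.0066). The former call was lost without No-BAL replicate 2 or any Control or hiHep-BAL-Day8 library. PARP9 (1.02 to 2.52 FPKM) and PARP14 (0.364 to 1.62 FPKM), both ADP-ribosyltransferase family members, passed in no comparison. DTX3L and PARP9 overlap by 395 bases on chromosome 13, and the sources used here do not say whether counting used strand, so reads shared by the 2 genes may have been credited to either.

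IFI6, a mitochondrial protein that restrains apoptosis and viral replication, was the most abundant member in Control in FPKM. It lies at chr6:84852782-84858072. IFI6 measured 734, 801 and 709 FPKM in Control, 318 and 109 in No-BAL, 434 and 216 in Empty-BAL, 713 in hiHep-BAL-Day4 and 71.0 and 64.1 in hiHep-BAL-Day8. The day 4 library was within the Control range, and all libraries of the other groups were below it. IFI6 was lower than Control in No-BAL (-2.0 ± 0.46, limma adjusted p = 0.0089), Empty-BAL (-1.28 ± 0.46, 0.047) and hiHep-BAL-Day8 (-3.45 ± 0.46, 0.0012), and lower in hiHep-BAL-Day8 than in Empty-BAL (-2.17 ± 0.51, 0.012) and No-BAL (-1.45 ± 0.51, 0.047). The calls of Empty-BAL against Control and of hiHep-BAL-Day8 against No-BAL were each lost without any Control or hiHep-BAL-Day8 library, and without Empty-BAL replicate 2 or No-BAL replicate 1 respectively. That of hiHep-BAL-Day8 against Empty-BAL was lost without either hiHep-BAL-Day8 library.

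LGALS3BP, a secreted glycoprotein that binds galectins, was also lowest in hiHep-BAL-Day8 and near its Control level on day 4. It was 135 to 144 FPKM in Control, 77.4 and 55.2 in No-BAL, 92.9 and 56.0 in Empty-BAL, 148 in hiHep-BAL-Day4 and 37.6 and 37.7 in hiHep-BAL-Day8. It was lower than Control in No-BAL (-1.07 ± 0.25, limma adjusted p = 0.0095), Empty-BAL (-0.93 ± 0.25, 0.016) and hiHep-BAL-Day8 (-1.85 ± 0.25, 0.0013). The No-BAL call was lost without No-BAL replicate 2, and the Empty-BAL call without Control replicate 3.

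BST2, or tetherin, which holds budding virus at the cell surface, had a ratio of the highest to the lowest group mean in FPKM of 15.0, and of 8.09 without Empty-BAL replicate 1. It lies at chr2:60305306-60308295. BST2 measured 3.53, 3.46 and 3.47 FPKM in Control, 9.29 and 8.41 in No-BAL, 76.5 and 28.2 in Empty-BAL, 9.88 in hiHep-BAL-Day4 and 4.43 and 3.20 in hiHep-BAL-Day8. Both Empty-BAL libraries were above all others, and the hiHep-BAL-Day8 libraries lay on either side of Control. BST2 was higher in Empty-BAL than in Control (3.41 ± 0.36, limma adjusted p = 0.00021) and No-BAL (2.27 ± 0.40, 0.0071), and lower in hiHep-BAL-Day8 than in Empty-BAL (-3.32 ± 0.40, 0.00071). In No-BAL against Control it was 1.13 ± 0.36 (limma adjusted p = 0.032), and this call was lost without any 1 library of Control, No-BAL or hiHep-BAL-Day8. Markers of several other cells were also high in Empty-BAL. MARCO, a scavenger receptor of macrophages, was 179 and 56.4 FPKM there, against 5.29 to 6.39 in Control, and AIF1, another macrophage gene, 172.8 and 31.7 against 5.94 to 9.02. Summed FPKM of 6 neutrophil genes was 628 and 103 against 1.08 to 2.22 in Control, and that of 14 T and NK cell genes 97.5 and 63.6 against 36.4 to 36.8. For these 4 values, as for BST2, replicate 1 was the higher Empty-BAL library. The sum of 14 macrophage genes went the other way, at 1042 and 1292 FPKM against 1119 to 1225 in Control. CD68, CD163, VSIG4, CD14, C1QA, C1QB, C1QC and TIMD4 were higher in replicate 2, while CSF1R and MSR1 were higher in replicate 1. The part of these cells in the BST2 result was not tested.

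IFI35, a cytoplasmic regulator of innate signalling, was 21.6 to 24.1 FPKM in Control, 19.4 and 9.65 in No-BAL, 70.6 and 24.6 in Empty-BAL, 17.9 in hiHep-BAL-Day4 and 9.31 and 8.21 in hiHep-BAL-Day8. It was higher in Empty-BAL than in No-BAL (1.54 ± 0.47, limma adjusted p = 0.04), a call lost without Empty-BAL replicate 1, No-BAL replicate 2 or any Control or hiHep-BAL-Day8 library, and lower in hiHep-BAL-Day8 than in Empty-BAL (-2.14 ± 0.47, 0.0096), a call lost without hiHep-BAL-Day8 replicate 2. IFI44L was 14.4 to 17.0 FPKM in Control and 31.5 and 30.2 in hiHep-BAL-Day8, which was higher (0.93 ± 0.20, limma adjusted p = 0.0097), a call lost without either of those libraries. IFI44 (4.15 to 22.3 FPKM) and TAP1, a subunit of the peptide transporter for class I molecules (4.66 to 12.8 FPKM), passed in no comparison.

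The 2 libraries within No-BAL, and the 2 within Empty-BAL, differed for many of these genes. In No-BAL, replicate 2 was at least 2-fold above replicate 1 on the log2(FPKM + 1) scale for 7 of 35 members (20.0%: MX1, IFIT1, IFIT2, USP18, CMPK2, SAMHD1 and TAP1), against 2.92% of all genes, and 28 members were higher there. IFI6 was at least 2-fold lower in replicate 2, against 6.12% of all genes. In Empty-BAL, replicate 2 was at least 2-fold below replicate 1 for 9 members (25.7%: MX1, MX2, OAS2, DHX58, HERC6, IFI6, IFI35, BST2 and GBP2), against 10.5% of all genes, and above it for 0, against 9.26%. Between the hiHep-BAL-Day8 libraries 0 members were at least 2-fold apart, where 0.197% of all genes were higher and 0.172% lower in replicate 2. Between pairs of Control libraries 0 members were at least 2-fold apart, where 0.238% to 0.304% of all genes were in one direction. The median member differed from the Control mean by -0.09 and 0.56 in the No-BAL libraries, by 0.31 and -0.39 in the Empty-BAL libraries, by 0.54 in hiHep-BAL-Day4 and by -0.18 and -0.30 in hiHep-BAL-Day8. The corresponding medians of all genes lay between -0.05 and 0.03.

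**Figure D4:**
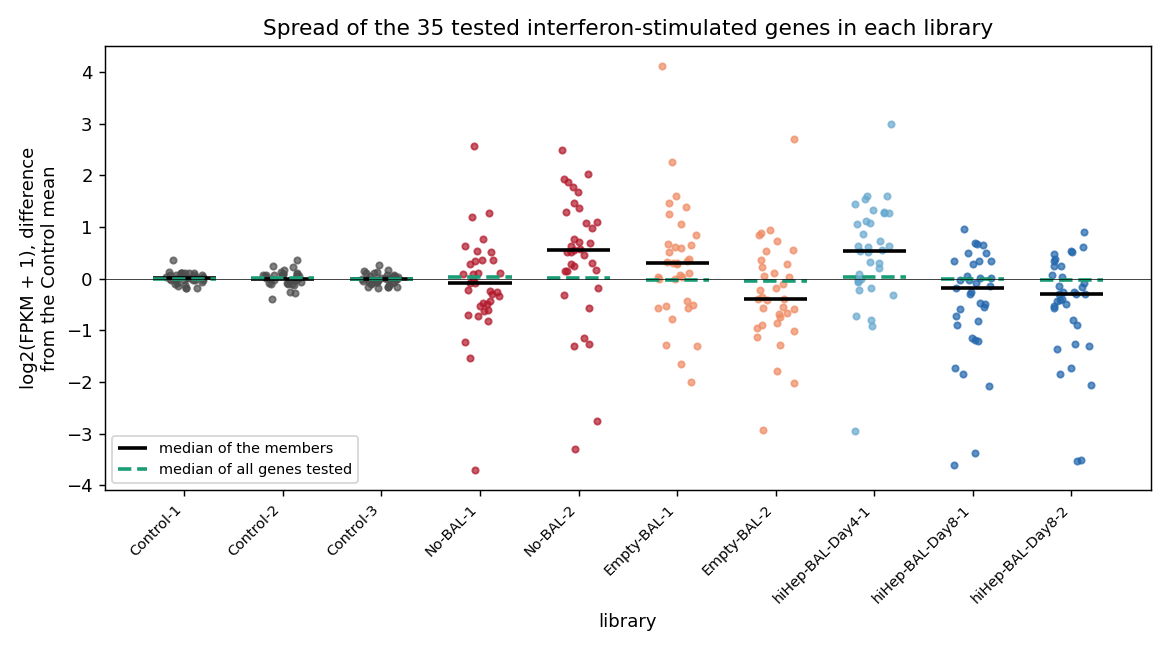
Difference of each of the 35 tested members from the Control mean in log2(FPKM + 1) (y axis) in each of the 10 libraries (x axis); points are genes, solid bars the median member and dashed bars the median of all 12180 genes tested. The medians of the No-BAL libraries lie at -0.09 and 0.56 and those of the Empty-BAL libraries at 0.31 and -0.39, while the Control libraries stay within 0.01 of 0.

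On day 4 of the filled device, in the single library of that group, many members were high. With 1 library there is no test, and the counts describe it alone. It was at least 2-fold above the Control mean on the log2(FPKM + 1) scale for 12 of 35 members, against 8.19% of all genes, and at least 2-fold below it for IRF1 alone, against 11.2%. The 12 were SAMHD1, IFI44, HERC6, ISG15, CMPK2, USP18, IFIT1, BST2, HERC5, MX1, DHX58 and IFI44L, with log2 differences from 1.05 to 3.0. Relative to the hiHep-BAL-Day8 mean, 15 members were at least 2-fold higher, against 12.3% of all genes. No member was at least 2-fold lower, so the same 15 were at least 2-fold apart in either direction, against 23.4% of all genes. Relative to No-BAL, 4 were higher and 1 lower (7.60% and 7.56% of all genes), and relative to Empty-BAL 12 were higher and 3 lower (16.5% and 13.4%). These comparisons all share that library.

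Several members are neighbours in the pig genome. Of the 38 found by symbol or identifier, 37 had coordinates in Sscrofa11.1, and OAS2 and OAS1 lie 3.4 kb apart on chromosome 14, HERC5 and HERC6 3.8 kb apart on chromosome 8, RSAD2 and CMPK2 5.6 kb apart on chromosome 3, and MX2 and MX1 21.4 kb apart on chromosome 13. IFI44 and IFI44L are 10.4 kb apart on chromosome 6, IFIT2 and IFIT1 33.1 kb apart on chromosome 14, and GBP2 and GBP1 17.0 kb apart on chromosome 4. Neighbours did not always behave alike: OAS2 was called lower in the 3 comparisons with Control while OAS1 passed in none, and HERC6 was above Control in every library outside Control while HERC5 was not. The OAS, IFIT, MX and GBP genes have near relatives, and the sources used here do not say how the authors' software shared reads between them, so their values are uncertain to that extent.

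The interferon genes that were found gave little signal, and no gene for a type III interferon was among them. IFNB1 was listed at 0 in all 10 libraries, and IFNA1, IFNG, IFNE and IFNK were each listed at 0 in most libraries and never exceeded 0.399 FPKM. Of 14 ligand, receptor and receptor kinase genes found, 9 were tested. IFNLR1, the type III interferon receptor chain that hepatocytes carry, measured 5.21 to 6.85 FPKM in Control, 1.52 and 1.56 in No-BAL, 1.82 and 2.01 in Empty-BAL, 2.60 in hiHep-BAL-Day4 and 4.59 and 4.83 in hiHep-BAL-Day8. It was lower than Control in No-BAL (-1.51 ± 0.15, limma adjusted p = 0.00016) and Empty-BAL (-1.30 ± 0.15, 0.00027), and higher in hiHep-BAL-Day8 than in No-BAL (1.17 ± 0.16, 0.00091). TYK2 was also lower than Control in No-BAL (-1.11 ± 0.22, limma adjusted p = 0.0041) and Empty-BAL (-0.72 ± 0.22, 0.024), and IL10RB, the shared chain of the type III receptor, was lower in hiHep-BAL-Day8 than in Control (-1.72 ± 0.23, 0.0013). All 9 tested genes encode receptor chains or kinases, since none of the ligand genes found passed the filter. Of the 9, 2 were lower than Control in No-BAL, 2 in Empty-BAL and 4 in hiHep-BAL-Day8, against 24.2%, 29.3% and 17.1% of all genes, and 0 were higher. With upper-quartile scaling 1 was higher and 1 lower in Empty-BAL, and 3 were lower in hiHep-BAL-Day8. The count in hiHep-BAL-Day8 fell further without hiHep-BAL-Day8 replicate 1.

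Of 14 tested signalling genes, 1 was higher and 7 were lower in No-BAL than in Control, 4 and 5 in Empty-BAL, and 1 and 5 in hiHep-BAL-Day8. Of all genes, 25.2% were higher and 24.2% lower in No-BAL, 24.4% and 29.3% in Empty-BAL, and 15.1% and 17.1% in hiHep-BAL-Day8. With averaged libraries these signalling calls were lost, as were most of those over all genes. The lower count in hiHep-BAL-Day8 became 3 with upper-quartile scaling, and it also fell when either hiHep-BAL-Day8 library was left out. SOCS3, a feedback inhibitor of cytokine receptors, was 232 to 253 FPKM in Control, 104 and 16.8 in No-BAL, 64.9 and 25.4 in Empty-BAL, 136 in hiHep-BAL-Day4 and 10.5 and 10.3 in hiHep-BAL-Day8, and lower than Control in all 3 (No-BAL -2.48 ± 0.68, limma adjusted p = 0.019, Empty-BAL -2.53 ± 0.68, 0.016, hiHep-BAL-Day8 -4.40 ± 0.68, 0.0024). IRF5, a factor of macrophages and B cells, was 2.24 to 2.45 FPKM in Control and 32.2 and 13.1 in Empty-BAL, which was higher (2.70 ± 0.31, limma adjusted p = 0.00033). Of 14 tested genes of nucleic acid sensing, 4 were higher and 2 lower in No-BAL, 7 and 2 in Empty-BAL, and 1 and 3 in hiHep-BAL-Day8, beside the same shares of all genes, and with averaged libraries 1 was called, higher in Empty-BAL. STING1, the adaptor of cytosolic DNA sensing, was 1.14 to 1.40 FPKM in Control, 2.27 and 1.49 in No-BAL, 8.53 and 7.59 in Empty-BAL and 5.93 and 5.30 in hiHep-BAL-Day8. It was higher than Control in Empty-BAL (2.00 ± 0.16, limma adjusted p = 5.6e-05) and hiHep-BAL-Day8 (1.54 ± 0.16, 0.00036).

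Among 25 tested interferon-stimulated genes outside the 40, 8 were higher and 5 lower in No-BAL than in Control, 9 and 4 in Empty-BAL, 2 and 6 in hiHep-BAL-Day8, and 1 and 12 in hiHep-BAL-Day8 against Empty-BAL. The shares of all genes were 25.2% and 24.2%, 24.4% and 29.3%, 15.1% and 17.1%, and 22.6% and 17.6%. With averaged libraries, 2 were called, both higher in Empty-BAL than in Control. CXCL10, a chemokine that draws T cells, was 26.1 to 29.4 FPKM in Control, 4.88 and 7.02 in No-BAL, 26.1 and 20.9 in Empty-BAL, 49.3 in hiHep-BAL-Day4 and 3.39 and 2.33 in hiHep-BAL-Day8. It was lower than Control in No-BAL (-2.04 ± 0.21, limma adjusted p = 0.00018) and hiHep-BAL-Day8 (-2.89 ± 0.21, 7.8e-05). IFI30, a lysosomal thiol reductase of antigen-presenting cells, was higher in Empty-BAL than in Control (3.53 ± 0.28, limma adjusted p = 5.7e-05). ISG20, an exonuclease, was higher in No-BAL (2.21 ± 0.33, limma adjusted p = 0.0011) and Empty-BAL (2.36 ± 0.33, 0.00076).

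Of 12 class I antigen presentation genes, 7 were higher in Empty-BAL than in Control and 0 lower, against 24.4% and 29.3% of all genes, and 8 were lower in hiHep-BAL-Day8 than in Empty-BAL, against 17.6%. The 7 became 4 without Empty-BAL replicate 1 or any Control or hiHep-BAL-Day8 library, and the 8 became 3 without hiHep-BAL-Day8 replicate 1. With averaged libraries these class I calls were lost in both comparisons, as were most of those over all genes. PSMB9, a subunit of the immunoproteasome, measured 4.15 to 5.03 FPKM in Control and 38.7 and 14.9 in Empty-BAL (2.16 ± 0.37, limma adjusted p = 0.002). B2M, the light chain of class I molecules, was lower than Control in No-BAL (-0.94 ± 0.26, limma adjusted p = 0.017) and in hiHep-BAL-Day8 (-0.84 ± 0.26, 0.039), while TAP2, the partner of TAP1, was higher in No-BAL (1.74 ± 0.21, 0.00038).

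Markers of other cells varied between the same groups. Of 12 tested T and NK cell genes, 0 were higher and 11 lower in No-BAL than in Control, 4 and 1 in Empty-BAL, and 0 and 8 in hiHep-BAL-Day8. Of all genes, 25.2% were higher and 24.2% lower in No-BAL, 24.4% and 29.3% in Empty-BAL, and 15.1% and 17.1% in hiHep-BAL-Day8. Of 13 tested macrophage genes, 0 were higher and 6 lower in No-BAL, 7 and 1 in Empty-BAL, and 3 and 1 in hiHep-BAL-Day8, with median log2 changes of -0.37, 1.46 and -0.40. The sum of 14 macrophage genes, in which CD14 weighs most in Control, was 1119 to 1225 FPKM in Control, 469 and 246 in No-BAL, 1042 and 1292 in Empty-BAL, 1104 in hiHep-BAL-Day4 and 882 and 889 in hiHep-BAL-Day8. CD14 was 680.0 to 752 FPKM in Control and 90.8 and 167 in Empty-BAL, whereas CD163, a haemoglobin scavenger receptor, was 12.01 to 13.1 in Control and 84.0 and 108 in Empty-BAL. Summed FPKM of 6 neutrophil genes was 1.08 to 2.22 in Control, 234 and 27.1 in No-BAL, 628 and 103 in Empty-BAL, 65.9 in hiHep-BAL-Day4 and 1.67 and 2.21 in hiHep-BAL-Day8. The neutrophil genes S100A8 and MMP8 were listed at 0 in all 3 Control libraries, and MMP8 in both hiHep-BAL-Day8 libraries. B and plasma cell genes summed to 34.5 to 38.2 FPKM in Control, 58.9 and 30.4 in No-BAL, 63.2 and 68.3 in Empty-BAL, 33.8 in hiHep-BAL-Day4 and 39.2 and 36.7 in hiHep-BAL-Day8. Of 3 tested genes used for plasmacytoid dendritic cells, which release interferon, 2 were lower in No-BAL, 1 in Empty-BAL and 2 in hiHep-BAL-Day8. Their sum, with 2 untested genes, was 20.3 to 21.8 FPKM in Control, 1.70 and 7.12 in No-BAL, 5.79 and 2.34 in Empty-BAL, 3.16 in hiHep-BAL-Day4 and 3.75 and 3.68 in hiHep-BAL-Day8. SMPD3 made up most of it in Control, at 17.6 to 19.3 FPKM, and in Empty-BAL SPIB, at 1.66 and 1.01 against 1.15 to 1.68 FPKM in Control, was not called. Of 10 endothelial genes, 2 were higher and 2 lower in No-BAL, 3 and 1 in Empty-BAL, and 3 and 1 in hiHep-BAL-Day8, with median log2 changes of 0.60, 0.53 and 0.83. Their sum was 283 to 315 FPKM in Control, 90.4 and 126 in No-BAL, 243 and 187 in Empty-BAL, 63.5 in hiHep-BAL-Day4 and 189 and 190 in hiHep-BAL-Day8, and CLEC4G made up 203 to 233 of it in Control. How far these cells account for the member values was not tested.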

How the data were processed

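The authors deposited 1 table of FPKM for 31905 pig genes in 10 liver libraries, paired-end RNA sequencing per the labels' protocols. The file header names genes and libraries only; FPKM was taken from its gene name column, which is written as Cufflinks writes it, and from values that are not whole and library sums that differ. The submitters' processing notes list HISAT2, Cufflinks and HTSeq, with no role for each, and 2 builds, Sscrofa11.1 (pig) and mm10 (mouse). Nothing here used the mouse build. Columns were matched to samples by title. Members were taken by deposited symbol, and coordinates were matched by symbol to a Sscrofa11.1 gene table. The members, the pathway and marker lists and the tests were chosen with earlier results of these data known.

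Values were tested as log2(FPKM + 1), which understates the change of low genes, and all log2 changes are on this scale. A gene was tested where 2 or more libraries reached 1 FPKM, and the resulting 12180 genes were fitted together with limma (version 3.58.1, R 4.3.3), using a mean-variance trend and a mean for each of the 5 groups. The fit had 5 residual and 2.73 prior degrees of freedom. Tests were two-sided, with Benjamini-Hochberg adjustment over all genes tested in a comparison and a threshold of 0.05. hiHep-BAL-Day4, a single library, entered the fit but no test. The SE is limma's. Named members were, in each comparison, up to 5 called higher and up to 5 called lower with the largest change, plus IRF1, IRF7, IRF9, STAT2, USP18, DDX58, IFIH1, DHX58 and ISG15; further members are given by their ranges and calls. From each other list up to 3 called genes with the largest change were eligible. The marker genes MARCO, AIF1, CD14, CD163, SMPD3, SPIB and CLEC4G were chosen after their values were seen.

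The alternatives were a pseudocount of 0.1, no filter on low values, upper-quartile scaling, Control and hiHep-BAL-Day8 libraries each averaged to 1, the replicate number as a block, and leaving out each library. The planned search of promoters for motifs was not run. Plots were drawn with matplotlib 3.10.9 and tables made with numpy 2.4.6 and pandas 2.3.3 under Python 3.11.15.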

Additional observations from a re-analysis of the deposited data

How the results depend on the processing

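Of 86 values of named members, each computed under 15 alternatives, 1042 kept direction and side of the threshold, 206 lost a call, 25 gained one and 17 changed sign, none of these 17 from a called value. The cause of each difference was not tested, except that the averaged and left-out settings use fewer libraries and the setting without a filter tests more genes. With averaged libraries most calls over all genes were lost too. Leaving out a library often moved the share of all genes called as well, up or down.

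Averaging the Control and the hiHep-BAL-Day8 libraries gave 0 members higher and 1 lower in No-BAL against Control, 0 higher and 1 lower in hiHep-BAL-Day8 against No-BAL, and 0 in either direction in the other 4 comparisons. With no filter on low values, 3 members were higher in No-BAL against Control, 3 higher and 5 lower in Empty-BAL against Control, 3 lower in Empty-BAL against No-BAL, and 1 higher and 5 lower in hiHep-BAL-Day8 against No-BAL. Upper-quartile scaling gave 8 higher and 5 lower in Empty-BAL against Control, 4 lower in Empty-BAL against No-BAL and 5 lower in hiHep-BAL-Day8 against No-BAL. It put the median member of the hiHep-BAL-Day8 libraries at -0.02 and -0.18. A pseudocount of 0.1 gave 2 members higher in hiHep-BAL-Day8 against Empty-BAL, 2 members at least 2-fold lower in hiHep-BAL-Day4 against Control, and a median of -0.47 in hiHep-BAL-Day8 replicate 2.

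With the replicate number as a block, 3 members were higher in No-BAL against Control, 4 lower in Empty-BAL against Control, 0 higher in hiHep-BAL-Day8 against Control, 3 lower in Empty-BAL against No-BAL, and 1 higher and 5 lower in hiHep-BAL-Day8 against No-BAL. Deviations of same-numbered libraries from their group means correlated between -0.089 and 0.137, so the numbers were not taken to pair the libraries.

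Leaving out single libraries gave 1 to 14 members higher and 3 to 6 lower in No-BAL against Control, 3 to 9 and 4 to 10 in Empty-BAL against Control, 0 to 4 and 4 to 11 in hiHep-BAL-Day8 against Control, 3 to 6 and 3 to 13 in Empty-BAL against No-BAL, 0 to 3 and 3 to 17 in hiHep-BAL-Day8 against No-BAL, and 1 to 4 and 4 to 15 in hiHep-BAL-Day8 against Empty-BAL.

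The 17 sign changes, none of them called, came from upper-quartile scaling and from leaving out single libraries. Under upper-quartile scaling, USP18 in Empty-BAL against Control was 0.05, IRF7 in Empty-BAL against No-BAL 0.19 and IRF1 in hiHep-BAL-Day8 against No-BAL 0.14. With single libraries left out, No-BAL against Control ranged from -0.49 to 0.30 for IRF9 and from -0.61 to 0.15 for IFIH1. Empty-BAL against Control ranged from -0.18 to 0.65 for IRF9, from -0.39 to 0.11 for USP18 and from -0.36 to 1.45 for DHX58. Empty-BAL against No-BAL ranged from -0.29 to 0.14 for IRF7, from -0.09 to 0.75 for IRF9 and from -1.23 to 0.59 for DHX58. hiHep-BAL-Day8 against No-BAL ranged from -0.29 to 0.13 for IRF1 and from -0.63 to 0.13 for IFIH1, and hiHep-BAL-Day8 against Empty-BAL from -0.31 to 0.52 for IRF9 and from -0.37 to 0.13 for USP18. Depth is unknown from FPKM, so values near 1 FPKM carry an uncertainty that cannot be stated.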
